A study of Mus musculus with 6 samples.

Results

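Horizontal basal cells are the flat reserve stem cells that lie on the basement membrane of the olfactory epithelium. They were represented here by 10 genes of 31319 in the deposited table, taken by gene name: the transcription factor gene Trp63, the keratin genes Krt5, Krt14, Krt15 and Krt17, the hemidesmosome genes Itga6, Itgb4 and Col17a1, the growth factor receptor gene Egfr and the adhesion molecule gene Icam1. The tissue was the main olfactory epithelium, the odour-sensing lining of the nose, of male C57BL/6 mice aged 5 months. Polyadenylated RNA was sequenced in 3 libraries of miR-200b/a knockdown mice (KD-1 to KD-3) and 3 of the NC group (NC-1 to NC-3), whose count columns are headed as controls. The sources used here do not give how the microRNAs were lowered, in which cells, or what the NC mice received. Nor do the labels tie libraries to separate mice, and p-values therefore reflect only how far these libraries scatter, part of which may be technical. Values per library are listed in the order of the library numbers.

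As background, horizontal basal cells rest while they hold p63, the protein of Trp63, and give rise to neurons and supporting cells after injury. Krt5 pairs with Krt14 into the filaments that run through the cell, and these filaments end at hemidesmosomes, plaques in which the integrin of Itga6 and Itgb4 and the transmembrane collagen of Col17a1 bind laminin below the cell. The same genes are used by basal cells of the respiratory lining and by myoepithelial cells of glands, both of which a dissected nasal tissue can hold. In bulk RNA, fewer cells of a type and less RNA per cell cannot be told apart.

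Total counts per library ran from 15704791 to 17618540. The poly(A) counts at the targeted loci were lower in each KD library than in any NC library. They were 3 to 54 against 84 to 200 for Mir200a and 0 to 28 against 47 to 76 for Mir200b, although such counts do not measure the mature microRNAs. Counts of the mature neuron gene Omp were also lower in each KD library (149 to 33430 against 61926 to 69388). Whether the locus counts follow the amount of neuron RNA was not tested. A pair of libraries stood apart: KD-2 held 149 counts of the mature neuron gene Omp, against 24302 to 69388 in the other 5, and NC-1 was low in immune and basal genes. NC-1 had the highest Omp count. Without both libraries the fitted log2 fold changes of the 10 basal genes ran from 0.15 (Egfr) to 2.41 (Krt15), with a median of 0.86.

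All 10 basal cell genes had a higher mean in KD than in NC, by 1.23-fold for Egfr to 3.56-fold for Icam1, and none passed the test. In 8 of the 10 each KD library lay above each NC library in normalised counts per 1000000 (CPM), the exceptions being Krt15 and Egfr. Such separation was found in 15.3% of the 18444 genes that entered the fit. By the quasi-likelihood test of edgeR, 0% of these genes had a Benjamini-Hochberg adjusted p under 0.05, and the members' adjusted p ran from 0.276 to 0.356. At an unadjusted p under 0.05 there were 6 members (Trp63, Krt5, Krt14, Itga6, Itgb4 and Col17a1), all higher in KD, where 8.70% of all genes were higher at that level. DESeq2 called 0.821% of its genes higher and none of the members, the smallest adjusted p being 0.0758 for Itga6. The fitted log2 fold change was above 0 for 10 of 10 members and for 50.6% of all genes tested, with a median of 1.32 over the members and 0.01 over all genes.

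**Figure D1:**
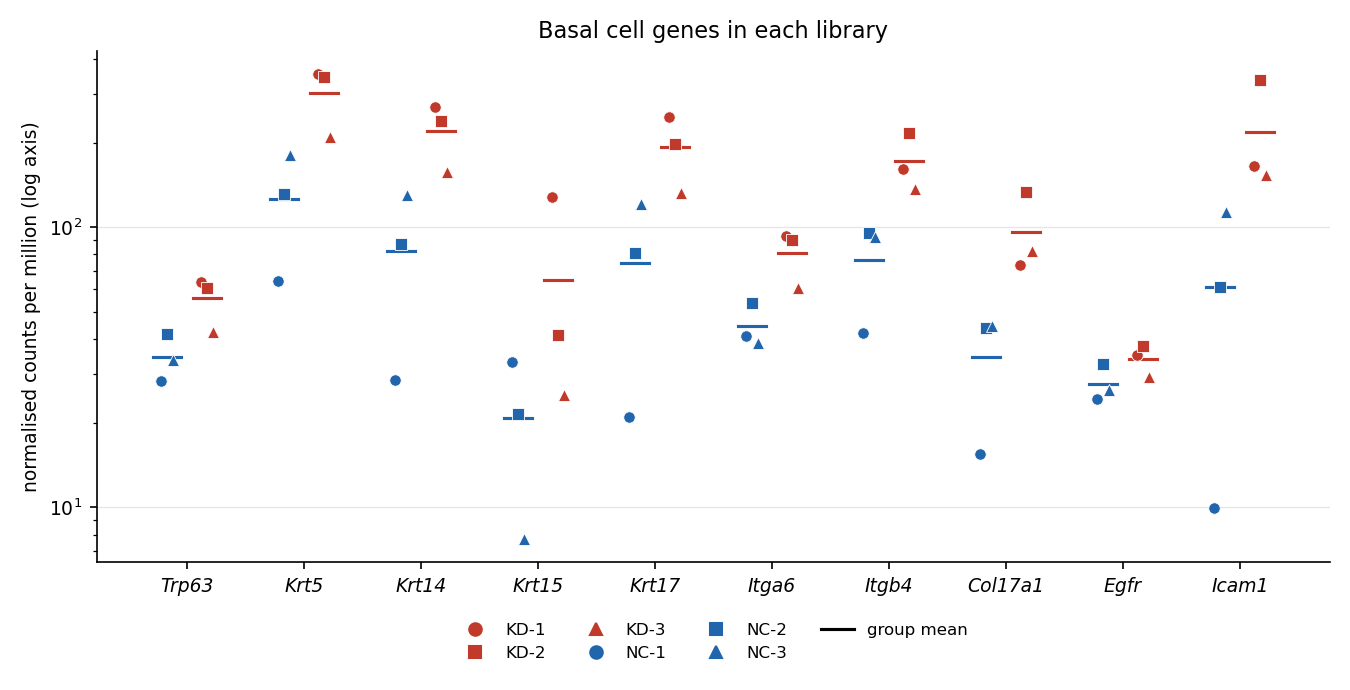
Normalised CPM (log axis) of the 10 basal cell genes in each library, KD in red and NC in blue, with symbols for the library number and a line at each group mean. KD points lie above all NC points for 8 genes, while Krt15 and Egfr overlap, and NC-1 is the lowest library for 8 genes, all but Krt15 and Itga6, which are lowest in NC-3.

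Trp63 encodes p63, the transcription factor that keeps basal cells in reserve (chromosome 16, 25683763 to 25892102, plus strand, build GRCm38). It had 1096, 795 and 765 counts in KD and 459, 812 and 599 in NC. In raw counts KD-2 and KD-3 were below NC-2, and after scaling by TMM factors the order changed, to 64.0, 60.9 and 42.2 CPM against 28.3, 41.5 and 33.6. KD-3 then exceeded NC-2 by a ratio of 1.02. The groups stood at 55.7 ± 11.8 and 34.5 ± 6.63 CPM (SD, n = 3 each), with a fitted log2 fold change of 0.69 (SE 0.22, edgeR adjusted p = 0.276). With total counts alone as the scale the groups of Trp63 overlapped, so that 7 members were separated, and 9.74% of all genes were. That scale moved the median of all genes to -0.14 and the median of the members to 1.14 on the log2 scale.

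Krt5, the type II keratin of basal cells (chromosome 15, 101707070 to 101712898, minus strand), was the most abundant of the keratin members. Its counts were 6034, 4490 and 3822 in KD and 1042, 2580 and 3241 in NC. KD-1 and KD-2 were close together at the top, and in CPM KD-3 (211) lay nearer to NC-3 (182) than to them. The groups stood at 302 ± 79.5 and 126 ± 58.9 CPM (SD, n = 3 each), with a fitted log2 fold change of 1.26 (SE 0.42, edgeR adjusted p = 0.276). Leaving out NC-1 gave 0.95, and leaving out KD-2 as well gave 0.86.

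Krt14 and Krt17 are type I keratins, partners of Krt5 and of related type II keratins, whose genes lie in 1 cluster on chromosome 11 (Krt14 at 100203162 to 100207548, Krt17 at 100256217 to 100261029, both on the minus strand). Krt14 had 4591, 3115 and 2848 counts in KD against 463, 1706 and 2322 in NC. Krt17 had 4254, 2578 and 2399 against 342, 1585 and 2165. Both were highest in KD-1 and lowest in NC-1, and their groups did not overlap in CPM. The log2 fold changes were 1.43 (SE 0.54) and 1.37 (SE 0.61), with edgeR adjusted p of 0.276 and 0.287. NC-3 decided much of the size: without it the values were 1.94 and 1.92, and without NC-1 they were 1.03 and 0.93. Krt17 counts per 1000 Krt14 counts stayed between 739 and 932 in the 6 libraries, with KD (828 to 927) inside the range of NC.

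Krt15 (chromosome 11, 100131758 to 100135928, minus strand), a type I keratin of stem-like basal cells in stratified epithelia, followed another order. It had 2188, 539 and 457 counts in KD and 537, 422 and 138 in NC. KD-1 stood far above the other 5 libraries, and NC-1, lowest for the other keratins, was the highest NC library and above KD-3 in CPM. The groups stood at 64.7 ± 55.2 and 20.8 ± 12.7 CPM, and the log2 fold change of 1.64 (SE 0.76, edgeR adjusted p = 0.293) became 0.67 without KD-1 and 2.14 without NC-1. Krt15 counts per 1000 Krt5 counts were 363, 120 and 120 in KD and 515, 164 and 42.6 in NC, a 12.1-fold range that did not follow the groups. The squamous keratin gene Krt6a also had its highest count in KD-1 (1934, against 6 to 367 elsewhere), and its lowest, 6, in NC-1. Its part in the Krt15 values was not tested.

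Reads could be shared with related genes only over short stretches of these transcripts. Of the 100-base stretches of Krt5, 2.38% also occur in another annotated transcript, all of them in Krt6a and 9 also in Gm5478. For Krt14 the share was 2.78%, all in Krt16, which had at most 23 counts in any library. For Krt15, Krt17 and the remaining members other than Itga6 no such stretch was found, and for Itga6 the share was 3.71%, spread over 7 other genes. The annotation places an antisense gene over 537 exon bases of Itgb4 (B230344G16Rik, at most 11 counts in a library) and over 511 of Icam1 (Gm47079, at most 1 count). An annotated microRNA gene, Gm44323, lies opposite 129 exon bases of Krt5, and no count of it was used here.

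The 3 hemidesmosome genes were separated between groups. Itga6, integrin alpha 6 (chromosome 2, 71745616 to 71858416, plus strand), had 1588, 1178 and 1103 counts in KD and 664, 1047 and 687 in NC. KD-3 lay closest to NC-2, at 60.8 against 53.5 CPM. Mean levels were 81.3 ± 17.8 and 44.3 ± 8.03 CPM (SD, n = 3 each). The log2 fold change was 0.87 (SE 0.22), and its edgeR p, 0.00743 before adjustment and 0.276 after, was the smallest of the 10 members. Over the 6 fits that each left out 1 library its fold change ran from 0.76 to 1.05.

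Itgb4, integrin beta 4, the partner that Itga6 has in hemidesmosomes (chromosome 11, 115974709 to 116008412, plus strand), had 2774, 2829 and 2477 counts in KD and 679, 1869 and 1640 in NC. The KD libraries were within 1.59-fold of each other in CPM, and NC-1 was the low library of NC. Means were 172 ± 41.0 and 76.4 ± 30.0 CPM, a log2 fold change of 1.17 (SE 0.36, edgeR adjusted p = 0.276). Itgb4 counts per 1000 Itga6 counts were 1747, 2402 and 2246 in KD against 1023, 1785 and 2387 in NC, so the balance of the 2 subunits overlapped between groups and was lowest in NC-1.

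Col17a1, collagen XVII (chromosome 19, 47646344 to 47692094, minus strand), had 1260, 1750 and 1489 counts in KD and 251, 856 and 790 in NC. The lowest KD library exceeded the highest NC library by a ratio of 1.66 in CPM, the widest gap among the 10 members. In CPM the groups had 96.6 ± 32.7 and 34.5 ± 16.5, a log2 fold change of 1.48 (SE 0.45, edgeR adjusted p = 0.276), which was 0.85 once KD-2 and NC-1 were both left out. Col17a1 was highest in KD-2, whereas the keratin members were highest in KD-1.

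Egfr, the receptor through which epidermal growth factor and its relatives act on basal cells (chromosome 11, 16752203 to 16918158, plus strand), differed least. It had 598, 493 and 529 counts in KD and 395, 636 and 467 in NC. NC-2 had the highest raw count, and in CPM it lay above KD-3 (32.5 against 29.2). Group means were 33.9 ± 4.38 and 27.7 ± 4.27 CPM, a log2 fold change of 0.29 (SE 0.17, edgeR adjusted p = 0.356). Relative to Trp63, Egfr was lower in KD: per 1000 Trp63 counts there were 546, 620 and 692 Egfr counts in KD and 861, 783 and 780 in NC, without overlap. Of all other genes tested, 44.5% were likewise separated downward per Trp63 count, so the ratio shows nothing particular to Egfr, and no test of it was run.

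Icam1, an adhesion molecule that marks horizontal basal cells and also binds leukocyte integrins (chromosome 9, 21015985 to 21028817, plus strand), had the highest fold change and the widest spread among NC libraries. It had 2824, 4395 and 2777 counts in KD and 162, 1195 and 2015 in NC. The NC libraries alone spanned 11.3-fold in CPM, against 2.20-fold in KD. Icam1 averaged 218 ± 103 and 61.3 ± 51.5 CPM, a log2 fold change of 1.83 (SE 0.82, edgeR adjusted p = 0.287). It was 1.33 without NC-1, 2.62 without NC-3 and 0.89 with neither KD-2 nor NC-1. When the level of mature neuron genes, itself lower in every KD library, entered the fit, the Icam1 value was 1.07. Leukocyte and endothelial transcripts were also higher on average in KD. The summed CPM of 6 leukocyte markers ran from 1640 to 6693 in KD and from 439 to 2955 in NC, and that of 8 endothelial markers from 253 to 395 and from 116 to 222, with no marker of either list under 10 counts in all libraries. Icam1 counts per 1000 counts of the leukocyte gene Ptprc overlapped, at 797 to 1671 in KD and 433 to 989 in NC. The part of these cells in the Icam1 values was not tested.

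**Figure D2:**
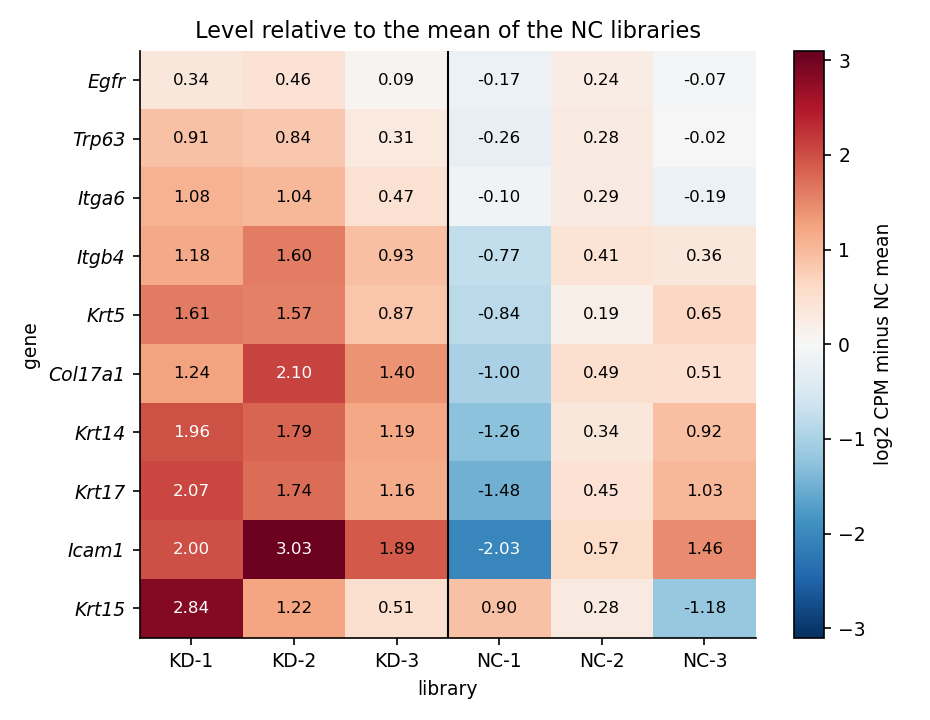
Log2 CPM (prior count of 2) less the NC mean, by gene and library, with KD left of the black line and a colour scale from blue (lower) to red (higher). Krt14 and Krt17 have nearly the same row, Krt15 is highest in KD-1 at 2.84, and Icam1 spans from -2.03 in NC-1 to 3.03 in KD-2.

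Over the 6 libraries the members differed in how steeply they varied, and the closest pairs were not always of 1 role. The root mean square distance between log2 CPM profiles, each centred on its own mean, was smallest for Krt14 and Krt17 (0.12) and for Trp63 and Itga6 (0.13). Itgb4 lay near Krt5 (0.23) and near Col17a1 (0.25). Krt15 was at least 0.86 from each of the other members, and Icam1 at least 0.59. Relative to the NC mean, the median of the 10 genes was 1.42, 1.58 and 0.90 in KD and -0.81, 0.31 and 0.43 in NC. KD-3 and NC-3 were thus closer to each other than KD-1 or KD-2 was to any NC library.

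Genes outside the members had still closer profiles. Among 13369 other genes with a mean of at least 5 CPM, those nearest to Krt5 were S100a14 (0.10), Klhdc8a (0.10), Il16 (0.11), Cdt1 (0.12) and Mcl1 (0.13). Mcl1, a survival factor of the Bcl2 family, stood at 706, 727 and 529 CPM in KD and 147, 252 and 398 in NC. Nearest to Trp63 were Cep85l (0.06), Pdgfra, P2ry14, Erap1 and Adss (0.08 each). Pdgfra, a receptor of fibroblasts, stood at 113, 104 and 79.4 CPM in KD and 48.8, 66.0 and 54.6 in NC.

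Compared between genes per 1000 exon bases, Krt5, Krt14 and Krt17 were the most abundant members in both groups. In NC the mean levels in CPM per kilobase were 57.3 ± 26.8 for Krt5, 48.0 ± 32.5 for Krt17 and 46.6 ± 29.0 for Krt14 (SD, n = 3 each), which do not differ beyond their spread. Icam1 (14.1 ± 11.8), Krt15 (11.8 ± 7.19) and Itgb4 (10.9 ± 4.27) followed, again within their spread. Col17a1 (5.74 ± 2.74), Itga6 (4.91 ± 0.89) and Trp63 (4.11 ± 0.79) were lower and Egfr lowest (2.44 ± 0.38). In KD the order was the same except that Krt14 (126 ± 32.7) and Krt17 (124 ± 37.5) changed places, with Krt5 at 138 ± 36.2. Levels of genes with many isoforms, such as Trp63 and Itga6, can be understated on this scale, since all annotated exons count as length.

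The mature miR-200b-3p and miR-200a-3p of the mouse are shown because their seeds, the bases 2 to 8 in capitals that pair with target transcripts, were searched for in the members. The sequences are those of RefSeq (GRCm38.p6, chromosome 4, minus strand, 156055685 to 156055706 and 156054911 to 156054932):

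mmu-miR-200b-3p: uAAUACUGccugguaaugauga
mmu-miR-200a-3p: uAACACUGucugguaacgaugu

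Matches to these seeds, CAGTATT for miR-200b and CAGTGTT for miR-200a on the transcript strand, were counted in the longest annotated 3′ untranslated region of each gene. Only Trp63 and Egfr of the 10 members held any, and they are the members with the smallest fold changes. Trp63 had 1 match to miR-200b and 2 to miR-200a in 3064 bases, and Egfr had 2 and 1 in 6303 bases. The regions of the other 8 were short, from 150 bases for Krt14 to 1310 for Itga6. Of 15779 tested genes with such a region (median 1174 bases), 29.0% held a match to either seed, 14.9% to miR-200b and 19.7% to miR-200a. The matches, in capitals with their surroundings on the plus strand of GRCm38, were:

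Trp63, miR-200b, chr16:25890860-25890887: tgggaaagcatgcaaCAGTATTcccctt
Trp63, miR-200a, chr16:25891499-25891526: tttgggctgtttcagCAGTGTTggtgtg
Trp63, miR-200a, chr16:25891633-25891660: tttgtctcctcacacCAGTGTTtagtgt
Egfr, miR-200a, chr11:16912507-16912534: cacgcgctagtttacCAGTGTTttctat
Egfr, miR-200b, chr11:16912614-16912641: aacaaacaaaaaaccCAGTATTaagtat
Egfr, miR-200b, chr11:16912673-16912700: acccattcaaaccatCAGTATTgtgacc

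A match is a run of letters and not a measured site. Of the 6, the Egfr match at 16912614 to 16912641 is followed by an A, the base that strengthens pairing opposite the start of a microRNA. The 8 genes with no match include those with the highest fold changes, Icam1 and Krt15. Any link between matches and fold changes was not tested.

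RefSeq promoter windows of 300 bases around the transcript start were found for Krt5, Col17a1, Icam1, Egfr and Krt14. The Krt14 window starts inside the GENCODE gene and was not used. Those of Krt5, Col17a1 and Icam1 are shown. These genes were all lowest in NC-1, but their profiles over libraries differed. The root mean square distance was 0.35 between Krt5 and Col17a1, 0.69 between Col17a1 and Icam1 and 0.83 between Krt5 and Icam1. They are given 5′ to 3′ on the gene's strand, with capitals for matches on either strand to the TATA box TATAAA, the AP-1 motif TGANTCA, the NF-κB motif GGAAATTCC and the GC box GGGCGG:

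Krt5, chr15:101712856-101713155, minus strand: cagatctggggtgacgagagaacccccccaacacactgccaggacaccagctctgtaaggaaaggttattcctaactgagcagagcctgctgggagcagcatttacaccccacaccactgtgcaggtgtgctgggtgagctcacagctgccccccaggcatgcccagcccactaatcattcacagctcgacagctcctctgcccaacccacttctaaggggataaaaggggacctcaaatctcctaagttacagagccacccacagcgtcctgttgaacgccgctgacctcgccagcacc
Col17a1, chr19:47691993-47692292, minus strand: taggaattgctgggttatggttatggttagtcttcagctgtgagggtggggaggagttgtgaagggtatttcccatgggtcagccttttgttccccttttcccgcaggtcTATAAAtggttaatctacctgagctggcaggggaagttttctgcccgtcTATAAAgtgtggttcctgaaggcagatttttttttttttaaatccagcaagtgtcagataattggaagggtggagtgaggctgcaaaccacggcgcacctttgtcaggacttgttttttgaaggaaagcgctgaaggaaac
Icam1, chr9:21015690-21015989, plus strand: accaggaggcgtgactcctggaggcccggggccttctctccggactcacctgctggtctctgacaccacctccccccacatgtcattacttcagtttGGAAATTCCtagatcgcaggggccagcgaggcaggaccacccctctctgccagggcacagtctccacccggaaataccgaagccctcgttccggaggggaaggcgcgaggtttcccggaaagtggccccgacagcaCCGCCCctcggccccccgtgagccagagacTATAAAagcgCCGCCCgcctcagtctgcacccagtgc

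Icam1 held the letters GGAAATTCC 153 bases before the start that RefSeq gives, as 0.317% of all 32851 windows of this length do. The search took only this spelling of the NF-κB motif, chosen after the values were seen. That share therefore does not tell how rare NF-κB motifs are. Icam1 also held 1 match to TATAAA 13 bases past that start (13.6% of windows) and 2 to the GC box on the opposite strand (35.7%). Col17a1 held 2 matches to TATAAA. Krt5 held none of the 4 motifs, and the AP-1 motif (7.81% of windows) was in none of the 3. These letters say nothing of which factor was bound in the tissue.

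The wider hemidesmosome and its basement membrane partners were mostly higher in KD as well, with none past the test. Of the 12 genes listed, 9 were above 0 and 3 below, and the median log2 fold change was 0.66 against 0.01 for all genes. KD libraries lay all above NC for 7 of the 12, against 15.3% of all genes tested, and all below NC for 1. Among laminin genes, which encode ligands of the integrin that Itga6 and Itgb4 form, Lama3 was at 27.9 ± 5.70 against 14.3 ± 4.47 CPM and Lamb3 at 86.7 ± 23.7 against 38.9 ± 16.6 (SD, n = 3 each). Their log2 fold changes were 0.96 (SE 0.29) and 1.16 (SE 0.38), both with edgeR adjusted p = 0.276. Plectin, which ties keratin to the plaque, had a log2 fold change of 0.76 (Plec, SE 0.26), and the other plaque linker Dst of -0.20 (SE 0.17).

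In the list of the EGF receptor family, its ligands and inhibitors, 10 of 12 genes were tested, and 9 were above 0 with a median of 0.61. Erbb4 and Epgn had under 10 counts in every library. None passed the test. The co-receptor gene Erbb2 had 134 ± 19.9 in KD and 82.7 ± 18.5 CPM in NC, with a fitted log2 fold change of 0.70 with SE 0.22. The ligand gene Hbegf had 744, 259 and 174 counts in KD and 75, 162 and 167 in NC, highest in KD-1 as Krt15 was. Errfi1, a feedback inhibitor of the receptor, had 3079, 1506 and 1108 against 644, 1171 and 1059 counts. The ligand gene Egf was the listed gene below 0, with 96, 71 and 73 counts against 399, 157 and 100, and its groups overlapped in CPM.

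Of 10 adhesion genes linked to p63, 9 were above 0 (median 0.75) and 6 had KD libraries all above NC, against 15.3% of all genes tested. Perp, a desmosome gene under p63, had 97.1 ± 11.7 in KD and 58.1 ± 11.6 CPM in NC, with a fitted log2 fold change of 0.74 with SE 0.19. Dsp, desmoplakin, stood at 149 ± 13.1 against 112 ± 5.85 and Cdh3, P-cadherin, at 20.7 ± 7.11 against 12.4 ± 2.62. The edgeR adjusted p of these 3 ran from 0.276 to 0.277.

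The partners of Icam1 and the feedback genes of NF-κB, the factor that induces Icam1, were above 0 in 10 of 10 (median 1.43). None passed the test, and 5 had KD libraries all above NC, against 15.3% of all genes tested. Vcam1, a related adhesion molecule, stood at 38.9 ± 14.3 against 17.8 ± 5.87 CPM, with overlap. Nfkb2 stood at 126 ± 25.7 against 46.4 ± 28.0 CPM. The inhibitor gene Tnfaip3 had 5353, 4122 and 6090 counts in KD and 161, 1059 and 2602 in NC, with a fitted log2 fold change of 2.20 (SE 0.86, edgeR adjusted p = 0.276). NC-1 was the lowest library for Icam1 and for Tnfaip3, and NC-3 the highest of NC for both.

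Other markers of horizontal basal cells were present in all libraries, and 9 of 10 were above 0 (median 0.57). Of these markers 8 had KD libraries all above NC, against 15.3% of all genes tested. The summed CPM of the 10 ran from 1150 to 1317 in KD and from 631 to 980 in NC. Sums of respiratory, general and squamous epithelial markers were higher too. The sum of 9 respiratory epithelium genes ran from 34600 to 49510 CPM in KD and from 9923 to 22650 in NC. Most of it came from Ltf (12310 to 30320 against 1410 to 7377) and Bpifa1 (13990 to 24500 against 6220 to 11920). Of 8 tested genes 6 were above 0 and 2 below, with log2 fold changes of -0.68 (Ccdc39) and -0.23 (Cyp2f2). For 5 of the 8 KD libraries lay all above NC, against 15.3% of all genes tested, and Scgb1a1 was at no more than 1 count. General epithelial genes ran from 2091 to 2990 and from 1374 to 2019, with 7 of 7 above 0. Squamous and suprabasal genes were at 534 CPM in KD-1 and at 163 to 180 in the other KD libraries, against 16.1 to 120 in NC, with 5 of 8 tested genes above 0 and Sprr1b at no more than 1 count.

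**Figure D3:**
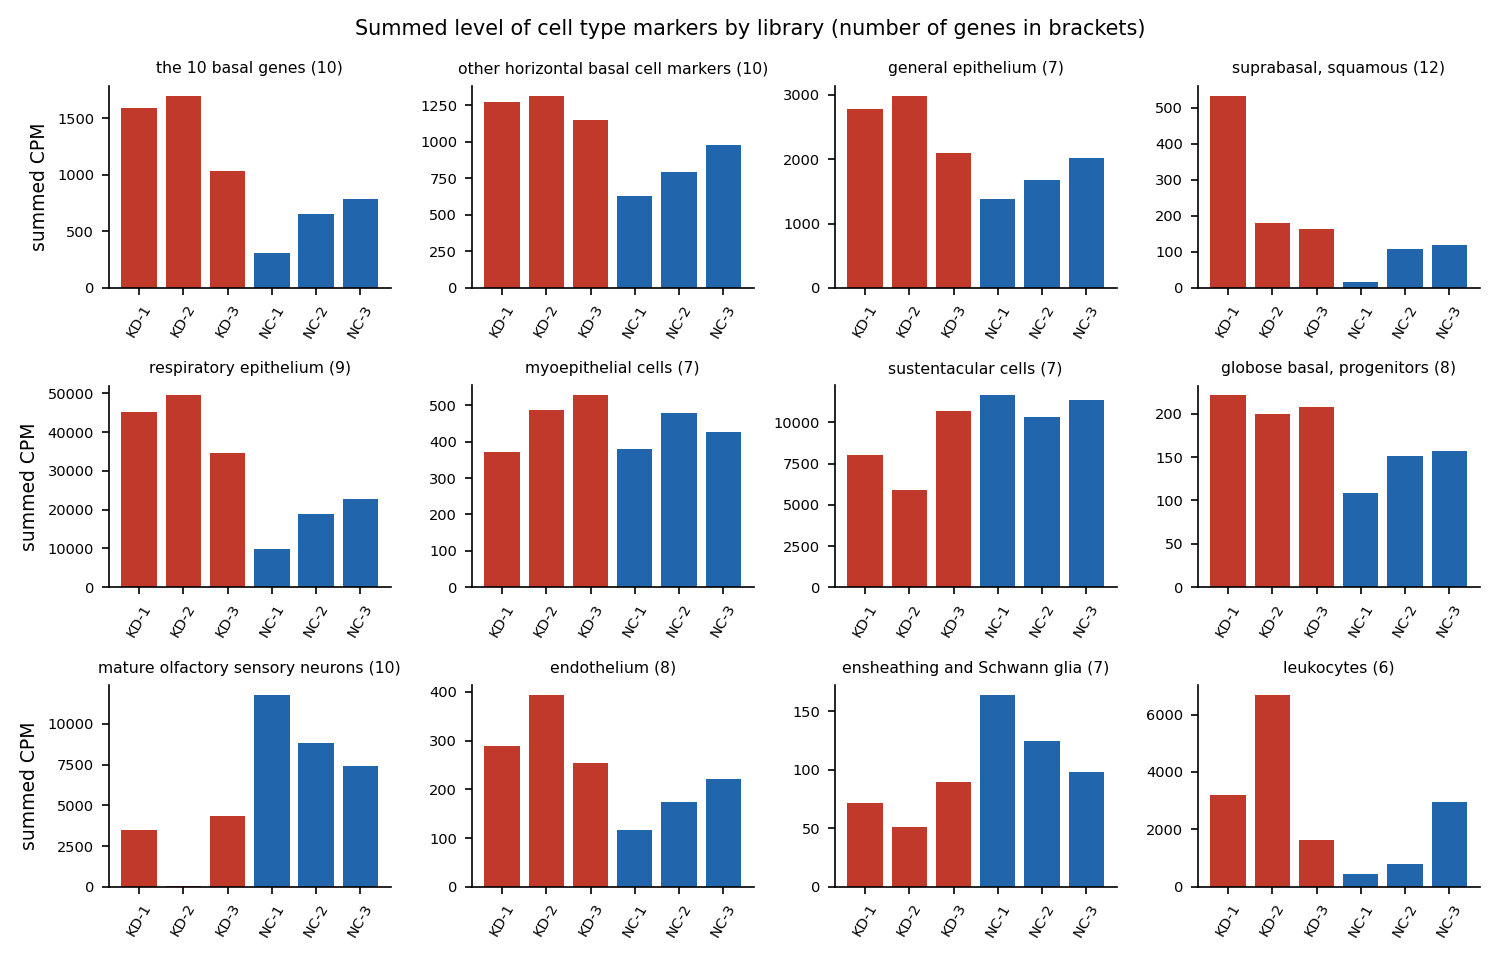
Summed CPM of marker lists in each library, KD in red and NC in blue, each panel with its own axis from 0 and the number of genes in brackets. The 10 basal genes, respiratory and general epithelium are higher in every KD library, mature neurons are nearly absent in KD-2, and myoepithelial genes overlap.

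The genes listed for myoepithelial cells, which share Krt5, Krt14, Krt17 and Trp63, were not separated between groups. Of 6 tested, 3 were above 0 and 0 had KD libraries all on 1 side of NC. The sum of the list ran from 371 to 528 CPM in KD and from 380 to 480 in NC. Most of that sum was Acta2 (228 to 336 in KD, 210 to 295 in NC), and Oxtr, with at most 16 counts, did not enter the fit. How far the list stands for myoepithelial cells was not tested. Markers of ensheathing and Schwann glia were below 0 in 7 of 7, with sums of 50.9 to 89.7 against 98.4 to 164. Sustentacular genes overlapped in their sum (5928 to 10710 against 10300 to 11650) with 2 of 6 tested above 0 and Ugt2a1 at no more than 2 counts. Yet 4 of the 6 had KD libraries all below NC, although the share of all genes separated downward in CPM was not computed. Of these, Cyp2g1 was nearly absent in KD-2, with 385 counts against 26440 to 59865 in the other libraries. Globose basal cell and progenitor genes had 5 of 8 above 0 and sums of up to 221 in KD, each above the NC range of 109 to 157. Mature neuron genes were below 0 in 10 of 10, with sums of 72.5 to 4357 CPM in KD and 7430 to 11790 in NC. The part of each of these cell types in the basal genes' values was not tested.

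Set against the general epithelial gene Epcam, 6 of the 10 members had KD libraries all above NC, where 3.69% of all other genes tested did. No test of these ratios was run. Krt5 counts per 1000 Epcam counts were 844, 804 and 628 in KD and 241, 491 and 560 in NC. Krt14 (468 to 642 against 107 to 402), Krt17 (394 to 595 against 79.0 to 374) and Col17a1 (176 to 313 against 58.0 to 163) were separated as well. So were Itgb4 (388 to 507 against 157 to 356) and Icam1 (395 to 787 against 37.4 to 348). Trp63 overlapped, at 153, 142 and 126 against 106, 155 and 104, as did Itga6 (181 to 222 against 119 to 199), Egfr (83.7 to 88.3 against 80.7 to 121) and Krt15 (75.2 to 306 against 23.9 to 124). Epcam itself had a log2 fold change of 0.46 (SE 0.19, edgeR adjusted p = 0.279).

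**Figure D4:**
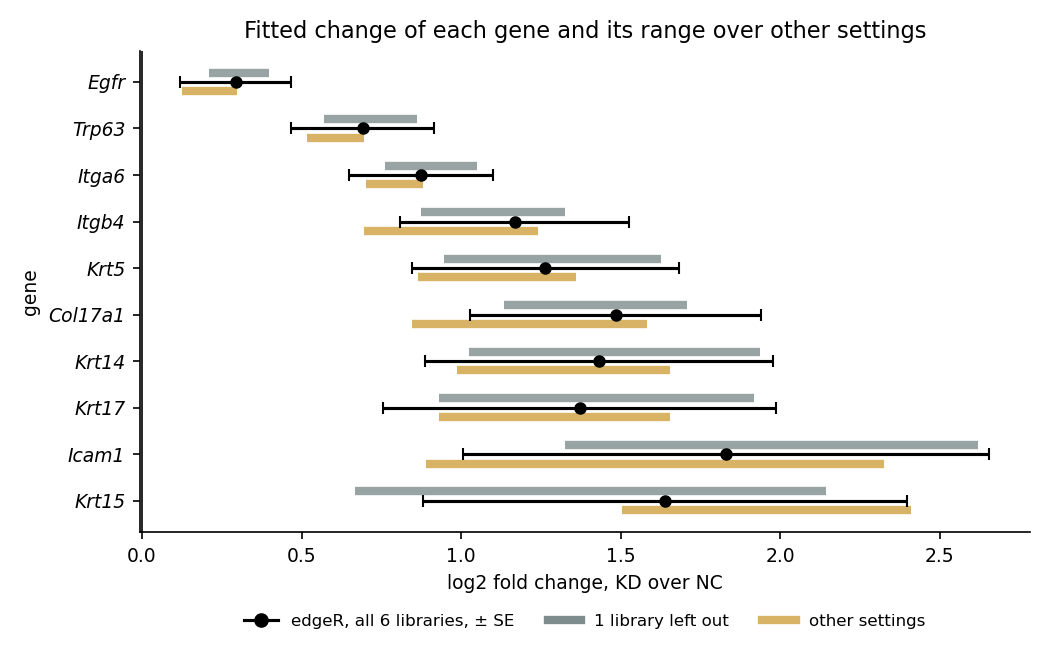
Fitted log2 fold change of KD over NC for each gene with its standard error (black), the range when 1 library was left out (grey) and the range over other tests, scalings, filters and covariates (ochre). All ranges lie above 0, from 0.12 at the lowest for Egfr to 2.62 at the highest for Icam1, and Krt15 has the widest grey bar.

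The authors' deposited table gives the same direction for the 10 members and an unadjusted p under 0.05 for 9 of them. Of all its genes with a p-value, 14.2% are under 0.05 in either direction. These values come from the same libraries and are not independent of the fits above. The log2 fold changes in the authors' deposited table run from 0.27 for Egfr to 1.81 for Icam1, and its p-values from 0.00293 for Itga6 to 0.239 for Egfr.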

How the data were processed

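Per the labels' protocols, RNA was taken from frozen tissue with Trizol, poly(A)-selected, and made into libraries with an NEBNext Ultra RNA kit. Of builds and tools, the submitters' processing notes list HTSeq 0.6.0, HISAT2 2.1.0, Bowtie2 2.2.3, TopHat2, DESeq and DESeq2, and the build GRCm38, without their roles. Neither annotation release nor strand setting is stated in the sources at hand, and sense and antisense reads over 1 locus may be mixed. The authors deposited raw counts of 31319 genes, and per the file headers a signal (mean of scaled counts), a log2 fold change and a p-value without adjustment.

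The test was that of edgeR 4.0.16 under R 4.3.3: TMM factors, default low-count filter, quasi-likelihood test, KD against NC, no covariate, two-sided, Benjamini-Hochberg over 18444 genes, threshold 0.05. DESeq2 1.42.0 and limma 3.58.1 (voom) served as alternatives. CPM are counts per 1000000 after TMM scaling. Standard errors were derived from the fold change and F. Scripts were tested on simulated data. Positions, exon lengths and untranslated regions came from GENCODE M21 (GRCm38).

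The members, lists and rules were chosen with earlier results of these data known. Named were all members, up to 3 genes of each of 4 pathway lists by smallest p, and the 5 genes nearest to Krt5 and to Trp63; 1 gene that this rule names is not reported here. Dst, Plec, Egf, Krt6a, Krt16, Epcam, Ptprc, Cyp2g1, Ltf and Bpifa1 were named after their values were seen, as were the count ratios and the motifs.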

Additional observations from a re-analysis of the deposited data

How the results depend on the processing

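The direction of the 10 members was above 0 in each of the 15 other fits that were run, and 0 members passed the threshold in any of them. Over all genes, the count past the threshold was 347 with DESeq2 (151 higher, 196 lower) and 3 (all higher) with neither KD-2 nor NC-1, against 0 in the other fits, including each of the 6 that left out 1 library. The cause was not tested. Members at an unadjusted p under 0.05, all higher in KD, numbered 6 in the edgeR fit of all libraries, where 8.70% of genes were higher at that level. They numbered 9 with DESeq2 (10.2% of genes) and without the low-count filter (6.46%), 8 with limma-voom (10.2%) and with neither KD-2 nor NC-1 (5.59%), and 6 with RLE or upper-quartile factors (8.35% and 7.74%). They numbered 5 with the block (7.22%), 4 with total counts (3.58%), 1 when the level of mature neuron genes entered the fit (3.27%), and 3 (without KD-1, 4.94%) to 7 (without KD-3, NC-1 or NC-3, 8.16%, 5.78% and 12.2%) with 1 library left out. The neuron level was 7.32, 1.72 and 7.79 in KD and 9.14, 8.74 and 8.46 in NC (mean log2 CPM). It did not overlap between groups, so that fit cannot tell it apart from the group. With the replicate number as a block the members' median log2 fold change was 1.44 and 0 genes passed. Same-numbered libraries did not deviate together in each pair (correlation of deviations 0.31, 0.10 and -0.26), and the numbers were not taken as pairs. Deviations from a mean of 3 libraries constrain one another, so these values cannot exclude pairing. With 3 libraries a group the biological coefficient of variation was 40.9%, and members had 138 to 6034 counts in a library. How far spread, depth or the choice of test limits the calls was not tested.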
